A study of Mus musculus with 2 samples.

Results

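Tumour necrosis factor (TNF) and the proteins that release it and receive its signal were described here at the RNA level, as 9 genes named by symbol out of the 55536 annotated genes in the tables. The genes were Tnf itself, the protease Adam17 and its partners Rhbdf1 and Rhbdf2, the receptors Tnfrsf1a and Tnfrsf1b, and the receptor-proximal adaptors Tradd, Ripk1 and Traf2. RNA-seq of polyadenylated RNA had been done on primary bone marrow-derived macrophages of the mouse strain C57BL/6J, exposed for 30 min to a bacterial ligand at 100 ng/ml. The ligand is lipid A, the membrane anchor of lipopolysaccharide, in the free-text label, whereas the source and treatment labels say lipoprotein A and call it a protein, and the labels do not settle which was used. The samples were 2 biological replicates of that single group, replicate 2 and replicate 1, each with its own biosample record, although the donor record is shared. Sex and age were not collected, and the labels do not say whether the cells came from separate animals or pools. No untreated sample was part of the series, so the levels below describe treated macrophages and cannot show that a gene was induced.

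TNF is made as a membrane-bound trimer that the metalloprotease ADAM17 cuts off the cell surface, and the iRhom proteins encoded by Rhbdf1 and Rhbdf2 carry ADAM17 through the secretory pathway and stay with it at the membrane. Soluble TNF acts mainly through the receptor TNFR1, whose intracellular death domain gathers TRADD, the kinase RIPK1 and the ubiquitin ligase adaptor TRAF2, while TNFR2 responds best to membrane-bound TNF and recruits TRAF2 directly. In macrophages TNF is an early product of Toll-like receptor signalling, and its short-lived mRNA is controlled through AU-rich elements in its 3′ UTR.

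Levels are given as TPM, a relative abundance scaled for transcript length and for the library total, and differences as the log2 ratio of TPM + 1, replicate 2 over replicate 1. Replicate 2 held 51904470 expected counts over genes and replicate 1 held 37784941. A single ribosomal RNA gene, CT010467.1, took 5.05% of the counts in replicate 2 and 10.9% in replicate 1. All 9 macrophage markers examined (Adgre1, Csf1r, Lyz2, Cd68, Itgam, Mertk, Fcgr1, Cd14 and Spi1) exceeded 10 TPM in each library. Markers of B cells, NK cells, dendritic cells and fibroblasts were all below 1 TPM in both libraries, as were the Cd3 genes of T cells, whereas Cd4 was at 82.2 TPM in replicate 2 and 111.1 TPM in replicate 1. Among mast cell markers, Kit was at 2.32 TPM in replicate 2 and 0.82 TPM in replicate 1, while Cpa3 and Mcpt4 were below 1 TPM in both libraries. Of 6 neutrophil markers, S100a8 and S100a9 alone reached 1 TPM in both libraries, and the list summed to 55.3 TPM in replicate 2 and 308.8 TPM in replicate 1. Most of both sums was S100a8, at 18.1 TPM in replicate 2 and 123.8 TPM in replicate 1, and S100a9, at 37.1 and 182.6 TPM. Mpo and Elane were at 0.10 and 0.04 TPM in replicate 2 and at 0.81 and 1.11 TPM in replicate 1. Ly6g and Retnlg were at 0 in replicate 2 and at 0.06 and 0.36 TPM in replicate 1.

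The sequences shown first mark where the members' transcripts carry features that the values below refer to. The 100 bases before the RefSeq start of Tnf (GRCm38.p6, chr17:35202008-35202107, minus strand) were chosen because Tnf had the highest level of the members. Capitals mark the GC box GGGCGG, read here on the opposite strand from position -49, and the TATA box TATAAA from position -29, counted back from the start.
Tnf promoter: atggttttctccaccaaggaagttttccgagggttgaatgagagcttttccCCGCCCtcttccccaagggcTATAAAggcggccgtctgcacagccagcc
RefSeq promoter windows of 300 bases were at hand for 6 members (Tnf, Adam17, Tnfrsf1a, Tnfrsf1b, Ripk1 and Traf2), with 7 windows because Ripk1 has alternative starts. Searched on both strands, TATAAA was in the Tnf window and in none of the other members' windows, beside 13.6% of all 32851 windows. GGGCGG was in every member window except that of Tnfrsf1a, with 4 matches in 1 Ripk1 window and 3 in the other, beside 35.7% of all windows. The AP-1 pattern TGANTCA matched no member window, beside 7.81% of all windows. The NF-κB consensus pattern also matched no member window, beside 8.46% of all windows. A missing match says only that these letters are not in these windows.

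The 3′ UTR of Tnf holds the AU-rich element that proteins such as tristetraprolin bind, and 30 bases of it (GRCm38, chr17:35199679-35199708, minus strand) are shown with overlapping ATTTA pentamers in capitals.
Tnf AU-rich element: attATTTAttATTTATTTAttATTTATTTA
These 30 bases contain 5 of the 8 ATTTA pentamers in the 764 bases of that 3′ UTR. The nonamer TTATTTATT occurred 5 times, counting overlaps, in the Tnf 3′ UTR and 0 times in the leading transcripts of the other 8 members. The background was 9977 genes with a mean of 1 TPM or more, each read by its highest protein-coding transcript where that had a 3′ UTR. Of these genes, 6.95% had at least 1 such nonamer and 5 genes, or 0.0501%, had 5 or more. The other genes with 5 or more were Eno2 (10 nonamers), Cox19 (8), Nufip1 (8) and 5430427O19Rik (5).

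Splicing distinguished the forms of Traf2 in their coding sequence. Traf2-202 carries 21 more coding bases than Traf2-201 at the end of exon 2 (GRCm38, chr2:25538845-25538865, minus strand), an in-frame insert of 7 codons that begins at codon 63. Both are shown with the shared flanks in lower case and the insert in capitals.
Traf2-202: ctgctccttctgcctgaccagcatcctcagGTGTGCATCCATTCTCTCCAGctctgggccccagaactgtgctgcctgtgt
Traf2-201: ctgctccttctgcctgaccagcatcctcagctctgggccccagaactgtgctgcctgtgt
A mouse TRAF2 splice form with a longer RING finger, the domain that joins it to ubiquitin conjugation, is known.

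Tnf, the ligand, stood far above the other members. It was at 1691 TPM in replicate 2 and 855.4 TPM in replicate 1, a mean of 1273 ± 591 TPM (SD, n = 2), rank 85 of all genes by mean level. Those levels rested on 80944 expected counts in replicate 2 and 29374 in replicate 1. The Tnf gene, ENSMUSG00000024401.14, lies at chr17:35199381-35202007 on the minus strand of mm10. Its log2 ratio of TPM + 1 was 0.98. The CPM ratio (the ratio of counts scaled to library depth), a separate measure, was 2.01. Its exact 95% interval of 1.98 to 2.03 covers counting error only. With 1 library on each side, no test of this difference was possible. The libraries also differed in the summed neutrophil markers, which were mostly S100a8 and S100a9, and in the ribosomal RNA share. They differed as well in Cd14, a surface receptor for lipopolysaccharide, at 927.9 TPM in replicate 2 and 439.9 TPM in replicate 1. The part of these differences in the Tnf ratio was not tested. In bulk RNA, a smaller share of producing cells and less RNA per cell cannot be told apart.

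Across all genes with a mean of 1 TPM or more, 1893 of 11106 lay past 1.5-fold between the libraries (17.0%), with 13.1% higher in replicate 2 and 3.97% lower. Of the 9 members, 8 had a mean of 1 TPM or more, and 2 of these, Tnf and Rhbdf2, lay past 1.5-fold, both higher in replicate 2. None lay past it in the other direction. Counts this small are not set apart from the background share. The log2 ratio of Tnf was above that of 96.1% of the genes, that of Rhbdf2 above 90.3%, and that of Tnfrsf1a, the lowest among the members, above 17.7%. The median gene had a log2 ratio of 0.09.

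**Figure D1:**
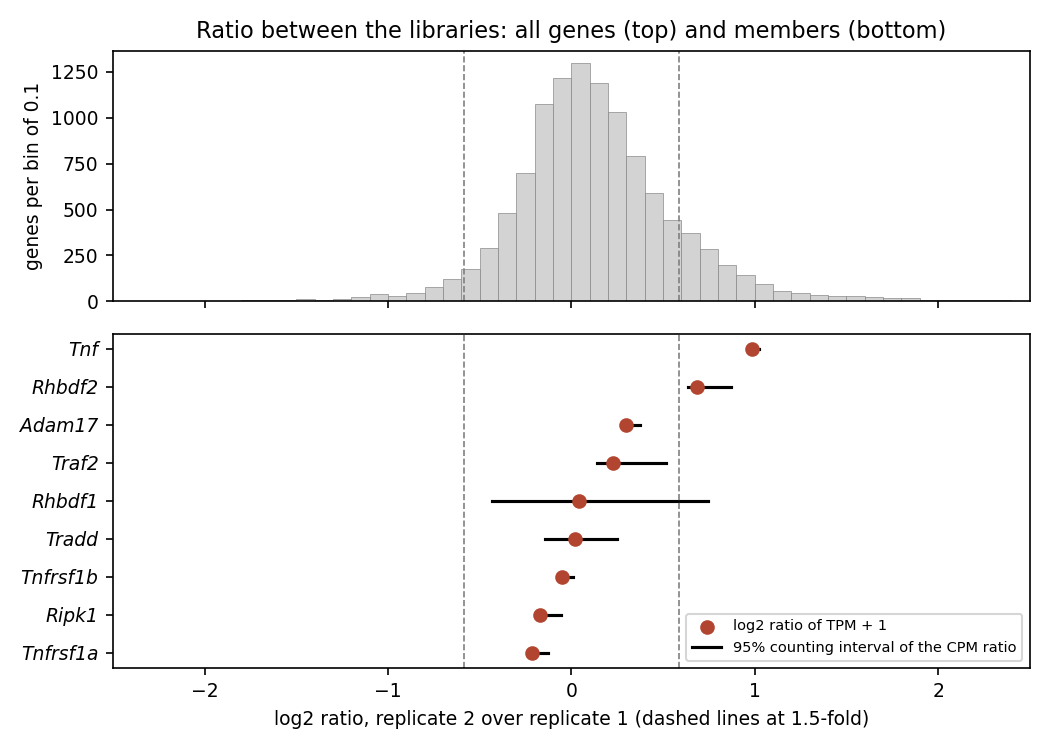
The top panel counts genes with a mean of 1 TPM or more by their log2 ratio, replicate 2 over replicate 1, and the bottom panel gives the 9 members' log2 ratios of TPM + 1 as points, with the 95% counting interval of the CPM ratio as lines. Tnf at 0.98 and Rhbdf2 at 0.69 lie to the right of the 1.5-fold line, and the points of the other 7 members lie between the dashed lines. The interval of Rhbdf1 is wide. The intervals belong to the CPM ratio and not to the points. TPM and CPM are scaled differently and the points add 1 to TPM, so a point can lie off the middle of its interval or outside it.

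The protein-coding genes nearest to Tnf over the 2 libraries were ranked by Euclidean distance of log2(TPM + 1), and the closest were Ifitm3, Tmsb10 and Ms4a7. Ifitm3, an interferon-induced membrane protein, was at 1686 TPM in replicate 2 and 833.8 TPM in replicate 1, a distance of 0.04 from Tnf. The next, Tmsb10, which encodes a thymosin, was at 1682 TPM in replicate 2 and 1087 TPM in replicate 1, a distance of 0.35. Over only 2 libraries, such likeness describes level and ratio and nothing more.

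Almost all Tnf RNA was assigned to the full-length transcript Tnf-201, with 99.9% in replicate 2 and 99.95% in replicate 1. The other annotated form, Tnf-202, lacks exon 3, whose 48 bases (GRCm38, chr17:35200858-35200905, minus strand) encode 16 codons from codon 81, close to the place where ADAM17 cuts the protein. Exon 3 is in capitals, with 12 bases of the neighbouring exons in lower case.
Tnf exon 3: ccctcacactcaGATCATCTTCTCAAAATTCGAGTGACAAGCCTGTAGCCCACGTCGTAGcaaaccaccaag
Tnf-202 was at 2.40 TPM in replicate 2 and 0.40 TPM in replicate 1, with 99.7 and 11.9 expected counts in those libraries. The second deposited quantification put it at 0.105 TPM in replicate 2 and at 0 in replicate 1, so the quantifications disagreed on its level.

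Adam17, the TNF sheddase, was at 76.0 TPM in replicate 2 and 61.6 TPM in replicate 1, a mean of 68.8 ± 10.2 TPM (SD, n = 2). Its expected counts were 11048 in replicate 2 and 6393 in replicate 1. The log2 ratio of 0.30 was within 1.5-fold, with a CPM ratio of 1.26 (95% counting interval 1.22 to 1.30). Adam17, ENSMUSG00000052593.16, lies at chr12:21323509-21373632 on the minus strand, and 303 exonic bases of its main transcript overlap Iah1-201 on the opposite strand. Iah1-201 was at 29.03 TPM in replicate 2 and 25.6 TPM in replicate 1, and since the labels do not state whether counting used strand, reads in the overlap cannot be assigned to a gene with certainty. Among its 10 transcripts, Adam17-201 took between 93.3% and 96.5% over both libraries and both quantifications. Adam10, a related sheddase, was lower than Adam17 in both libraries, with an Adam17 to Adam10 TPM ratio of 1.45 in replicate 2 and 1.37 in replicate 1.

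The iRhom genes differed widely in level. Rhbdf2, which encodes iRhom2, the form that immune cells depend on for TNF release, was at 17.7 TPM in replicate 2 and 10.6 TPM in replicate 1, a mean of 14.2 ± 5.0 TPM (SD, n = 2). Rhbdf1, which encodes iRhom1, was at 0.67 TPM in replicate 2 and 0.62 TPM in replicate 1, below 1 TPM in both, although its posterior mean TPM averaged 1.74. Rhbdf2 TPM was 26.4 times Rhbdf1 TPM in replicate 2 and 17.1 times in replicate 1, and the ranges did not overlap.

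The log2 ratio of Rhbdf2 between libraries was 0.69, with a CPM ratio of 1.68 (95% counting interval 1.55 to 1.83) on 2022 expected counts in replicate 2 and 874 in replicate 1. The Rhbdf2 log2 ratio was inside 1.5-fold at 0.58 when counts were scaled by TMM or DESeq2 size factors and at 0.54 with a pseudocount of 5, while Tnf lay past 1.5-fold under all 8 alternatives, at 0.87 to 1.11. Rhbdf1 rested on 64 expected counts in replicate 2 and 42 in replicate 1, and its CPM ratio of 1.11 had a counting interval of 0.740 to 1.68, so no difference was detectable at this depth. Both genes lie on chromosome 11 on the minus strand, Rhbdf2 (ENSMUSG00000020806.15) at chr11:116598165-116627019 and Rhbdf1 (ENSMUSG00000020282.18) at chr11:32209585-32222300.

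Rhbdf2-202 was the leading form, with 92.9% in replicate 2 and 96.7% in replicate 1. Rhbdf2-201, which encodes the same 827 codons from a different first exon, was at 0 in both libraries in the first quantification. A retained-intron form, Rhbdf2-203, took 6.61% in replicate 2 and 3.29% in replicate 1. Rhbdf1-201 led for Rhbdf1, and Rhbdf1-202, a form annotated for nonsense-mediated decay, appeared only in the second quantification of replicate 1, at 19.9%.

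Both receptors lay within 1.5-fold between the libraries. Tnfrsf1b, which encodes TNFR2, was at 201.6 TPM in replicate 2 and 208.6 TPM in replicate 1, a mean of 205.1 ± 4.95 TPM (SD, n = 2). Tnfrsf1a, which encodes the death-domain receptor TNFR1, was at 109.0 TPM in replicate 2 and 126.7 TPM in replicate 1, a mean of 117.9 ± 12.5 TPM (SD, n = 2). The ranges did not overlap, and Tnfrsf1b TPM was 1.85 times Tnfrsf1a TPM in replicate 2 and 1.65 times in replicate 1.

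The log2 ratio of Tnfrsf1b was -0.05 and that of Tnfrsf1a was -0.21. On counts, the CPM ratio of Tnfrsf1b was 0.988 with a counting interval of 0.969 to 1.01, and that of Tnfrsf1a was 0.884 with an interval of 0.854 to 0.915. Tnfrsf1b (ENSMUSG00000028599.10) lies at chr4:145213463-145246870 on the minus strand and had 24940 expected counts in replicate 2 and 18385 in replicate 1. Tnfrsf1a (ENSMUSG00000030341.17) lies at chr6:125349362-125362484 on the plus strand and had 7192 expected counts in replicate 2 and 5924 in replicate 1. Each receptor gene had 1 dominant transcript, Tnfrsf1b-201 at 98.8% to 99.6% and Tnfrsf1a-201 at 96.7% to 99.5% over libraries and quantifications. The ligand exceeded its receptors in both libraries: Tnf TPM was 8.39 times Tnfrsf1b TPM in replicate 2 and 4.10 times in replicate 1.

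**Figure D2:**
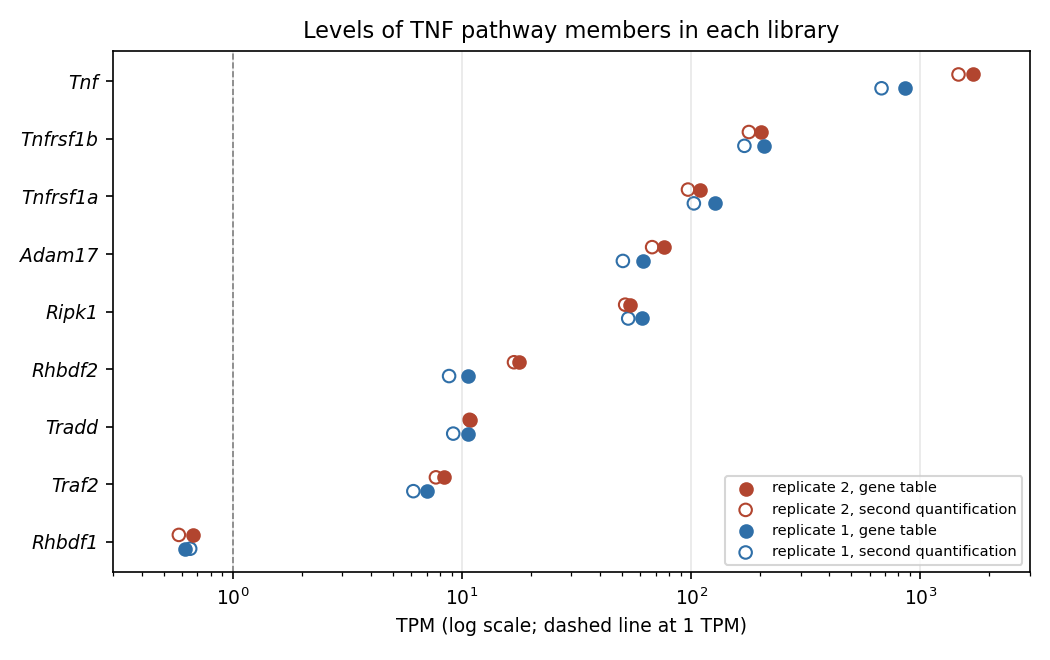
TPM of the 9 members on a log axis, with replicate 2 in red above replicate 1 in blue, filled points for the gene table and open points for the second quantification. Tnf lies farthest right at 1691 TPM in replicate 2 and 855 TPM in replicate 1, Rhbdf1 is the only member left of 1 TPM, and the red and blue points of Tradd and Tnfrsf1b nearly coincide.

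The adaptors that gather at the receptors spanned a wide range of levels. Ripk1, the kinase at the branch between survival and death signalling, was at 54.2 TPM in replicate 2 and 61.1 TPM in replicate 1, a mean of 57.7 ± 4.85 TPM (SD, n = 2). Tradd, which links the TNFR1 death domain to TRAF2, was at 10.8 TPM in replicate 2 and 10.6 TPM in replicate 1, a mean of 10.7 ± 0.12 TPM (SD, n = 2). Traf2, which brings the cIAP ubiquitin ligases to the complex, was at 8.36 TPM in replicate 2 and 7.01 TPM in replicate 1, a mean of 7.69 ± 0.955 TPM (SD, n = 2). Within each library Ripk1 stood above Tradd and Traf2: Ripk1 TPM was 5.03 times Tradd TPM in replicate 2 and 5.75 times in replicate 1. The Ripk1 to Traf2 TPM ratio was 6.49 in replicate 2 and 8.72 in replicate 1.

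None of the adaptors lay past 1.5-fold between the libraries. The log2 ratios were -0.17 for Ripk1, 0.02 for Tradd and 0.22 for Traf2. The CPM ratio of Traf2 was 1.26 with a counting interval of 1.10 to 1.43, on 640 expected counts in replicate 2 and 371 in replicate 1. The CPM ratio of Tradd was 1.04 with an interval of 0.905 to 1.19, on 524 expected counts in replicate 2 and 368 in replicate 1, and that of Ripk1 was 0.928 with an interval of 0.896 to 0.961. Ripk1 (ENSMUSG00000021408.15) lies at chr13:34002363-34037147 on the plus strand, Tradd (ENSMUSG00000031887.13) at chr8:105258286-105264609 on the minus strand and Traf2 (ENSMUSG00000026942.13) at chr2:25517982-25546940 on the minus strand.

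In the order of mean level, Tnf was followed by Tnfrsf1b, Tnfrsf1a, Adam17, Ripk1, Rhbdf2, Tradd, Traf2 and Rhbdf1. The ranges of the 2 libraries overlapped for 1 of the 8 pairs of neighbours, Rhbdf2 and Tradd. The lower Adam17 value, 61.6 TPM, lay just above the higher Ripk1 value, 61.1 TPM, so the order of these genes is not firm. In all, 8 members reached 1 TPM in both libraries, beside 19.2% of all annotated genes. In both libraries 7 members reached 10 TPM and 5 reached 50 TPM, levels at which the share of all genes was not computed.

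Traf2 RNA was divided between coding forms. Traf2-202, the form with the insert shown above, took 67.5% of Traf2 TPM in replicate 2 and 73.9% in replicate 1, and Traf2-201 took 31.9% in replicate 2 and 26.1% in replicate 1. In the second quantification, Traf2-202 took 82.5% in replicate 2 and 81.6% in replicate 1, and Traf2-201 took 15.0% in replicate 2 and 18.1% in replicate 1. Traf2-202 therefore led in both libraries and both quantifications, but its share moved more between quantifications than between libraries. Expected counts of Traf2-201 were 261.2 in replicate 2 and 126.9 in replicate 1, with posterior SDs of 35.1 and 21.8 counts in those libraries. The forms also differ in the length of their 3′ UTR, 544 bases in Traf2-202 and 1428 bases in Traf2-201, so that reads in the UTR as well as at the insert bear on the split.

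Ripk1 was divided between Ripk1-201 and Ripk1-203, which encode the same 656 codons. Ripk1-201 took 77.1% in replicate 2 and 79.7% in replicate 1, and Ripk1-203 took 22.3% in replicate 2 and 20.2% in replicate 1. In the second quantification, Ripk1-203 took 14.7% in replicate 2 and 13.1% in replicate 1. The forms start at different first exons and end in 3′ UTRs of 895 bases in Ripk1-201 and 4365 bases in Ripk1-203. A pseudogene on the same strand, Gm17084, lies inside the exons of Ripk1-203 over 511 bases and was at 8.81 TPM in replicate 2 and 13.7 TPM in replicate 1, so reads there may be split between them. At the 5′ end, Ripk1 overlaps Serpinb6a on the opposite strand, a gene at 998.9 TPM in replicate 2 and 1013.9 TPM in replicate 1. The Serpinb6a transcripts whose exons overlap were assigned 2.94 TPM or less. Since the labels do not state whether counting used strand, reads in that overlap cannot be assigned to a gene with certainty either.

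Tradd-201 took 97.2% of Tradd TPM in replicate 2 and 96.5% in replicate 1, and 85.4% and 91.5% in the second quantification of those libraries. The remainder was in short forms annotated as retained introns or for nonsense-mediated decay. Across the members' 45 annotated transcripts, the leading transcript was the same in both libraries and both quantifications for all 9 members. It held over 90% in all 4 for 4 of them. How often either holds over all genes was not computed, so these counts do not set the members apart.

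**Figure D3:**
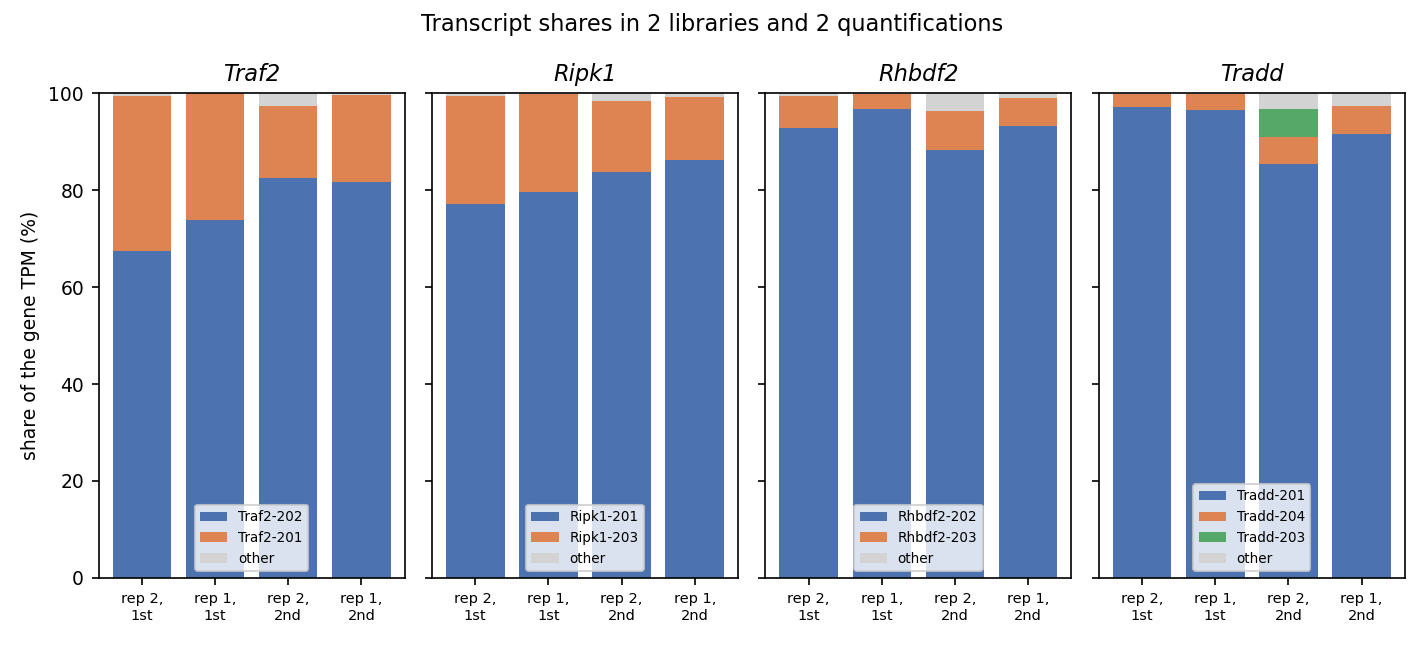
Stacked bars give each named transcript's share of the gene TPM (percent) for Traf2, Ripk1, Rhbdf2 and Tradd, in replicate 2 and replicate 1 of the first quantification and then of the second, with all other transcripts in grey. Traf2-201 fills 31.9% in replicate 2 and 26.1% in replicate 1 of the first quantification, and 15.0% in replicate 2 and 18.1% in replicate 1 of the second.

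**Figure D4:**
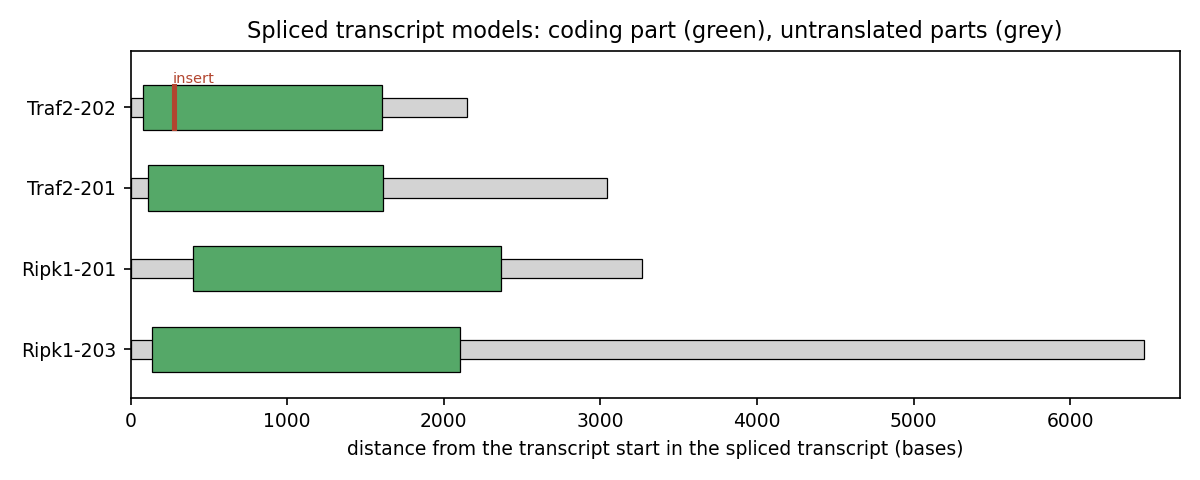
Spliced models of the leading and second transcripts of Traf2 and Ripk1, drawn to scale in bases from the transcript start, with coding parts as tall green boxes and untranslated parts as low grey boxes. The red band in Traf2-202 is the insert of 21 bases, and the coding part of 1968 bases is the same in both Ripk1 forms while the 3′ UTR of Ripk1-203 is longer.

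Genes around the members were followed in 7 lists holding 56 genes. Of these, 49 reached 1 TPM in both libraries, beside 19.2% of all annotated genes. The lists were chosen with earlier results of these data known, so counts of genes at a level, here and below, only describe the lists. Of the 49 with a mean of 1 TPM or more, 10 lay past 1.5-fold higher in replicate 2, beside the 13.1% of all genes, and 1 lay past it lower, beside 3.97%. When counts were scaled by TMM, the count of higher genes was 6, beside 9.27% of all genes. The genes no longer past 1.5-fold with TMM were Mlkl, at a log2 ratio of 0.57, Zfp36l1 at 0.54, Tbk1 at 0.45 and Tia1 at 0.19, and with a pseudocount of 5 Birc2 was inside it at 0.56.

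In the shedding list, 5 of 6 genes reached 1 TPM in both libraries and none lay past 1.5-fold, with a median log2 ratio of 0.21. Sppl2a, a protease that cuts the membrane stub left after shedding, was at 83.4 TPM in replicate 2 and 67.1 TPM in replicate 1. Adam10 was at 52.4 TPM in replicate 2 and 45.0 TPM in replicate 1. Furin, the convertase that removes the ADAM17 prodomain, was at 45.0 TPM in replicate 2 and 35.7 TPM in replicate 1. Frmd8, which stabilises the iRhom and ADAM17 complex, was at 17.3 TPM in replicate 2 and 15.1 TPM in replicate 1. Timp3, the secreted inhibitor of ADAM17, was at 0.19 TPM in replicate 2 and 0.43 TPM in replicate 1, the only gene of the list below 1 TPM.

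Among other substrates of ADAM17, 7 of 11 genes reached 1 TPM in both libraries, with a median log2 ratio of -0.19. The highest were Csf1r, the receptor for the macrophage growth factor, at 882.3 TPM in replicate 2 and 764.3 TPM in replicate 1, and the efferocytosis receptor Mertk, at 76.1 TPM in replicate 2 and 95.2 TPM in replicate 1. Axl, a receptor related to Mertk, was at 70.2 TPM in replicate 2 and 60.1 TPM in replicate 1, and the interleukin-6 receptor gene Il6ra at 28.3 TPM in replicate 2 and 25.6 TPM in replicate 1. Vcam1, an adhesion molecule, was the gene past 1.5-fold in the lower direction, at 7.92 TPM in replicate 2 and 17.5 TPM in replicate 1, a log2 ratio of -1.05. Tgfa, Cx3cl1 and Tnfsf11 were below 1 TPM in both libraries. The remaining gene, Areg, was at 1.86 TPM in replicate 2, on 61 expected counts, and at 0 in replicate 1. Its log2 ratio of 1.52 did not enter the counts past 1.5-fold, because its mean was 0.93 TPM.

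All 16 further genes of the receptor complex reached 1 TPM in both libraries, and 4 lay past 1.5-fold, all higher in replicate 2, beside 13.1% of all genes, with a median log2 ratio of 0.38. The highest within 1.5-fold were Ikbke, a kinase related to Tbk1, at 83.4 TPM in replicate 2 and 60.3 TPM in replicate 1, and Tab2, an adaptor of the kinase TAK1, at 71.7 TPM in replicate 2 and 53.7 TPM in replicate 1. Birc3, which encodes a cIAP ubiquitin ligase, was at 80.4 TPM in replicate 2 and 34.5 TPM in replicate 1, a log2 ratio of 1.20. Its relative Birc2 was at 13.7 TPM in replicate 2 and 7.67 TPM in replicate 1, a log2 ratio of 0.76. Traf1, a partner of TRAF2, was at 6.79 TPM in replicate 2 and 2.82 TPM in replicate 1, and the kinase gene Tbk1 at 59.7 TPM in replicate 2 and 38.0 TPM in replicate 1, a log2 ratio of 0.64 that was 0.45, inside 1.5-fold, with TMM. Traf2, at a log2 ratio of 0.22, was within 1.5-fold, as were the adaptors Tradd at 0.02 and Ripk1 at -0.17. Traf1, Birc2 and Birc3 were past it, a difference between genes that was not tested.

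Among the deubiquitinases and other brakes, 5 of 5 genes exceeded 10 TPM in each library. Tnfaip3, which encodes A20 and ends TNF receptor signalling, was at 356.5 TPM in replicate 2 and 147.0 TPM in replicate 1, and its log2 ratio of 1.27 was the only one of the list past 1.5-fold. Tnip1, an A20-binding protein, was at 64.9 TPM in replicate 2 and 53.3 TPM in replicate 1. The deubiquitinase genes Otulin and Cyld were at 51.2 and 19.3 TPM in replicate 2 and at 51.4 and 13.3 TPM in replicate 1. In the cell death branch, Cflar, an inhibitor of caspase-8, was at 74.8 TPM in replicate 2 and 38.6 TPM in replicate 1, and Mlkl, the executioner of necroptosis, at 31.8 TPM in replicate 2 and 19.4 TPM in replicate 1. Cflar and Mlkl were the 2 of 5 genes of this list past 1.5-fold, and Tnfaip3 was 1 of 5 in the list before. Beside these counts, 13.1% of all genes were higher past 1.5-fold. The Mlkl log2 ratio of 0.69 was 0.57, inside 1.5-fold, with TMM. Casp8 was at 68.3 TPM in replicate 2 and 64.6 TPM in replicate 1, and Ripk3, the kinase upstream of MLKL, at 8.91 TPM in replicate 2 and 11.3 TPM in replicate 1. The median log2 ratio was 0.29 for the brakes and 0.08 for the death branch.

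Genes that control Tnf mRNA all reached 1 TPM, 8 of 8, with a median log2 ratio of 0.45. Zfp36, which encodes tristetraprolin, a protein that binds AU-rich elements such as the one shown above, was at 1356 TPM in replicate 2 and 1091 TPM in replicate 1, a level of the same order as Tnf and a log2 ratio of 0.31. Past 1.5-fold were Zfp36l1, its relative, Zc3h12a, which encodes the RNase Regnase-1, and Tia1, an RNA-binding protein, with log2 ratios of 0.63, 0.76 and 0.62. These were 3 of the 8 genes, beside 13.1% of all genes higher past 1.5-fold. With TMM only Zc3h12a of these stayed past it, at 0.64. Within 1.5-fold were Zfp36l2, another relative of Zfp36, at 142.9 TPM in replicate 2 and 119.2 TPM in replicate 1, and Mapkapk2, which encodes the kinase MK2 that acts on tristetraprolin, at 132.8 TPM in replicate 2 and 103.8 TPM in replicate 1.

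The genes beside Tnf on chromosome 17 did not share its level. Lta, which encodes lymphotoxin alpha, had 2 expected counts in replicate 2 and 0 in replicate 1, and a count of 0 allows up to 3 counts, or 0.0794 CPM, in replicate 1. Ltb was at 0.25 TPM in replicate 2 and 0.27 TPM in replicate 1. Lst1, a leukocyte-specific transcript, was at 454.1 TPM in replicate 2 and 376.4 TPM in replicate 1, and Aif1, a macrophage calcium-binding protein, at 140.4 TPM in replicate 2 and 138.8 TPM in replicate 1. Nfkbil1 was at 10.7 TPM in replicate 2 and 8.19 TPM in replicate 1.

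**Figure D5:**
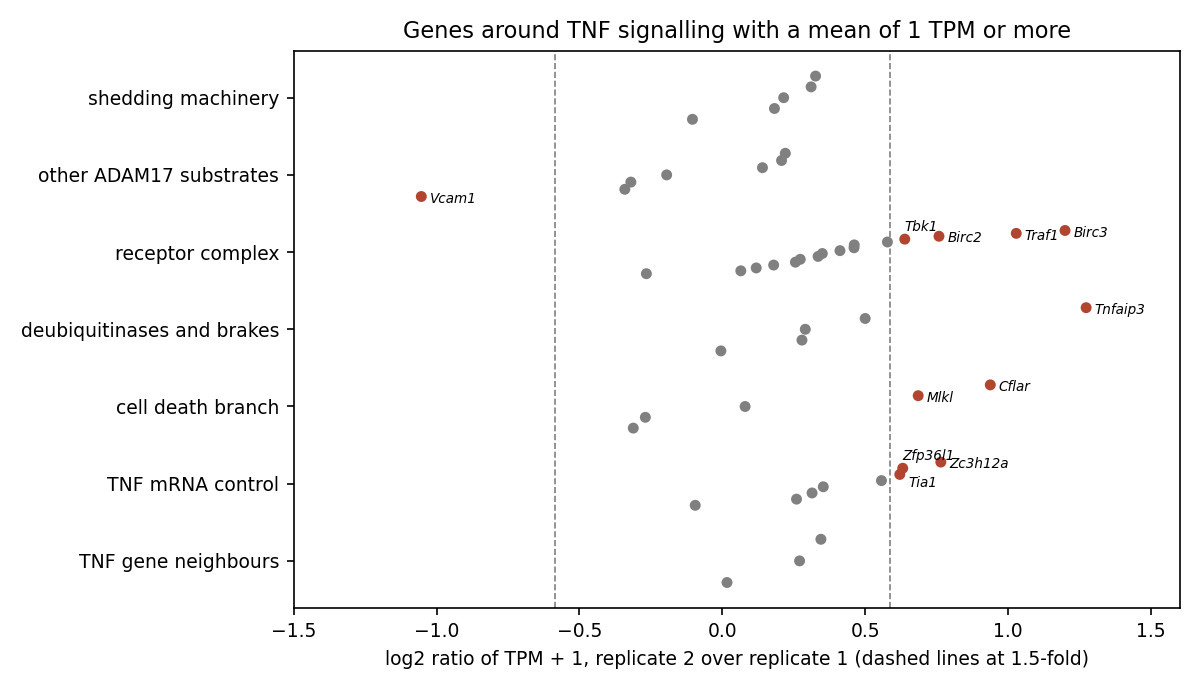
Each point is a gene of a pathway list with a mean of 1 TPM or more, placed by its log2 ratio of TPM + 1, replicate 2 over replicate 1, with dashed lines at 1.5-fold and red points past them. Tnfaip3 at 1.27 and Birc3 at 1.20 lie farthest right, and Vcam1 at -1.05 is the only red point on the left.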

How the data were processed

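Polyadenylated RNA had been sequenced from 2 libraries of 1 treatment group. Per the labels, RNA was taken from whole cells with 1 µg as starting amount. Per the deposited text files, values were made on mm10 with annotation M21, whereas for the aligner and the quantification tools no name is given in the sources used here. The gene and first transcript tables gave, per the file headers, expected counts, TPM, a posterior mean TPM and, in another unit, the posterior SD of a count. Expected counts were deposited unnormalized, and TPM had been scaled by the authors to a fixed total per library. A second deposited transcript table gave estimated counts and TPM, and its TPM was summed per gene as an alternative. No table held columns of other samples.

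Entries that name no gene, 0.0698% of counts in replicate 2 and 0.0891% in replicate 1, were left out of totals. Expected counts were rounded for the scaling factors of edgeR 4.0.16 (TMM) and DESeq2 1.42.0 in R 4.3.3. Other steps used Python 3.11.15, pandas 2.3.3, numpy 2.4.6, scipy 1.17.1 and matplotlib 3.10.9. Ratios used log2(TPM + 1), and genes with a mean of 1 TPM or more entered the background. Intervals of CPM ratios are exact 95% Clopper-Pearson intervals of the split of counts. Because the reads carry no molecular identifiers and may repeat a molecule, intervals and floors (3 counts for a count of 0) cover counting error only. No p-values were computed, since the libraries are replicates of the same group. Sequences were read from GENCODE M21 transcripts and, for promoters, from RefSeq.

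Members and lists were chosen with earlier results of these data known. Named were all members, in each list the genes among the 4 of highest mean TPM, past 1.5-fold or below 1 TPM in both libraries, transcripts with 5% or more of a gene in any library and quantification, and, of the 5 protein-coding genes nearest to Tnf, the first 3, the others being not reported here. Cell type markers, the ribosomal RNA gene, genes overlapping a member, Tnf-202, Rhbdf2-201 and the genes with 5 or more nonamers were named outside that rule, all but the markers after their values were seen. Alternatives changed the quantification, TPM column, scaling, pseudocount, fold, filter and library left out.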

Additional observations from a re-analysis of the deposited data

How the results depend on the processing

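No log2 ratio of a member that lay past 1.5-fold changed direction under the alternatives tried. Tnf lay past 1.5-fold under all 8 alternatives of scale, quantification or pseudocount. In the main setting, at 0.98, it was not past 2-fold. It was past 2-fold at 1.11 in the second quantification and at 1.003 with counts scaled by total. Rhbdf2 was inside 1.5-fold at 0.54 with a pseudocount of 5, at 0.58 with TMM and at 0.58 with DESeq2 size factors, and its 0.69 was not past 2-fold. Members past the fold and higher in replicate 2 then numbered 1 with each of these 3 alternatives, beside 6.83%, 9.27% and 9.39% of all genes in that order. At 2-fold in the main setting they numbered 0, beside 408 of 11106 genes. Pathway genes past the fold and higher numbered 6 with TMM, beside 9.27% of all genes, and 6 with DESeq2 factors, beside 9.39%. At 2-fold in the main setting they numbered 3, beside the same 408 of 11106 genes. Among the smaller set of genes with a mean of 10 TPM or more, 753 were higher past 1.5-fold and 155 lower. Among all 11106 genes with a mean of 1 TPM or more, 759 were higher with a pseudocount of 5 and 408 at 2-fold. In those settings 185 and 141 were lower, and 276 were lower in the second quantification. Of genes past the fold, 76.7% were higher in replicate 2, against 64.4% with TMM, 65.2% with DESeq2 factors, 66.9% with TPM rescaled without ribosomal RNA and mitochondrially encoded genes, and 87.0% in the second quantification. The median log2 ratio of all genes was 0.09, -0.01 with TMM and 0.19 in the second quantification.

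Mean levels with that rescaling were 80.6 TPM for Adam17, 0.757 for Rhbdf1, 138.9 for Tnfrsf1a, 241.3 for Tnfrsf1b, 12.6 for Tradd, 67.9 for Ripk1 and 9.01 for Traf2. Listed in this paragraph are values that differed from the main value by the SD of the 2 libraries or more. Tnf and Rhbdf2 also rose with the rescaling, to 1483 and 16.5 TPM, but by less than that SD. The second quantification gave 99.8 TPM for Tnfrsf1a, 174.6 for Tnfrsf1b, 9.97 for Tradd and 52.3 for Ripk1. The means of the other members were lower there too, by less than the SD, with 1072 TPM for Tnf and 58.9 for Adam17. Posterior mean TPM gave 1.74 for Rhbdf1, above 1 TPM, 199.1 for Tnfrsf1b and 11.0 for Tradd. Mean shares of the leading transcripts in the second quantification were 99.996% for Tnf, 94.9% for Adam17, 88.1% for Rhbdf1, 90.8% for Rhbdf2, 97.4% for Tnfrsf1a, 99.5% for Tnfrsf1b, 88.5% for Tradd, 85.0% for Ripk1 and 82.1% for Traf2. By expected counts they were 97.0% for Adam17, 97.4% for Rhbdf1, 99.8% for Tnfrsf1a, 99.97% for Tnfrsf1b, 99.2% for Tradd, 63.9% for Ripk1 and 62.0% for Traf2. Ratios within a library, taken on expected counts without scaling for length, averaged 2.42 for Tnf to Tnfrsf1b, 5.96 for Tnf to Adam17, 3.29 for Tnfrsf1b to Tnfrsf1a, 6.39 for Adam17 to Rhbdf2, 14.3 for Ripk1 to Tradd, 13.0 for Ripk1 to Traf2 and 14.9 for Tnfrsf1a to Tradd.

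Leaving out a library leaves the value of the other, as given for each member above. No paired analysis was possible because both libraries belong to the same group. With 2 libraries and no untreated sample, induction and differences between conditions were not measured, and depth limits Rhbdf1 and the minor transcripts. The cause of the changes between quantifications was not tested.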
